A study of Mus musculus with 38 samples.

Results

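RUNX proteins are transcription factors that bind DNA through a Runt domain, and Cbfb encodes core-binding factor beta, the partner subunit that does not touch DNA itself and strengthens the binding of all RUNX proteins. In mouse T cells Runx1 acts from early thymocyte development onward, Runx3 silences Cd4 and Zbtb7b in the CD8 lineage and supports cytotoxic and tissue-resident programmes, and Runx2 is best known as the master regulator of bone formation. Runx1 and Runx3 are each read from a distal and a proximal promoter, whose products differ at their amino terminus.

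The loci of these 4 genes were followed by ATAC-seq, which counts transposase insertions in open chromatin, in CD8+ T cells of C57BL/6J mice. Each library was made from 5000 to 50000 sorted cells, and the study describes 2 or 3 independent replicate pools per combination of genotype and subset. The groups hold 2 to 7 libraries, the labels do not say how these relate to the pools, and p-values measure the spread between libraries, which may be partly technical. The members were all peaks whose nearest mm10 protein-coding gene body, within 100000 bp, was Runx1, Runx2, Runx3 or Cbfb. The table of endogenous tumour-infiltrating cells held 116 such peaks of 73610, namely 28 at Runx1, 52 at Runx2, 30 at Runx3 and 6 at Cbfb. The table of OT-1 and naive cells held 169 of 169323, namely 51, 70, 41 and 7 in the same gene order. Of these, 113 and 135 had a mean of at least 10 normalized reads and were tested, and the other 3 and 34 were not. A peak was assigned by position alone, so none of these values says which gene a peak acts on.

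The endogenous cells came from B16-OVA melanomas on day 15 after implantation. They were Tadys cells (Slamf6-Tim-3-) of aged mice (2 libraries), called age-associated dysfunctional in the labels, Tterm cells (terminally exhausted, Slamf6-Tim-3+) of aged (3) and young (5) mice, and Tprog cells (progenitor exhausted, Slamf6+Tim-3-) of aged (3) and young (4) mice. Aged mice were 64 to 68 weeks old and young mice 10 to 12 weeks. The second table held tumour OT-1 cells, whose transgenic T cell receptor recognizes an ovalbumin peptide, as Tterm cells from aged (6) and young (7) donors and Tprog cells from aged (2) and young (2) donors, together with naive CD8+ T cells from aged (2) and young (2) spleens. All samples carry a wild type genotype label, no Tadys sample of young mice was listed, and the labels do not state the host of the OT-1 cells. The 2 tables were normalized separately, so no level is compared across them.

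Library depth, as reads recovered within peaks, was 4.64 to 87.6 megareads in the 17 endogenous libraries and 6.80 to 27.7 megareads in the other 21. All naive libraries were sequenced in batch 3 and no other library was, so naive cells and that batch cannot be told apart. Both aged OT-1 Tprog libraries, 1 aged OT-1 Tterm library and 2 young ones were in batch 6, and the other OT-1 libraries in batches 4 and 5. All endogenous libraries carry one shared label for batches 1 and 2, so these 2 batches could be neither modelled nor compared. The same holds for batches 4 and 5, whose OT-1 libraries also carry one shared label. All 6 markers of CD8 T cells (Cd8a, Cd8b1, Cd3d, Cd3e, Cd3g, Thy1) had peaks, with summed levels of 7905 to 12470 normalized reads in endogenous and 3214 to 6921 in OT-1 and naive libraries. Scaling each library to an equal total, instead of the deposited scaling, moved the median log2 difference over all tested peaks by more than 0.1 in several comparisons, by -0.16 for young endogenous Tterm against Tprog, -0.12 for young and -0.40 for aged OT-1 Tterm against Tprog, -0.23 for aged against young naive cells and -0.20 for young OT-1 Tterm against naive cells.

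Because the start peaks are compared throughout, the 300 bases around the listed starts are shown for the 3 RUNX genes, 5′ to 3′ on the gene's strand, from 250 bases before to 50 after the start. Capitals mark the letters AACCACA, one form of the sequence that RUNX proteins bind. The windows are those of the distal Runx1 start at chr16:92826025-92826324 (minus strand), the listed Runx2 start at chr17:44814578-44814877 (minus strand) and the distal Runx3 start at chr4:135120395-135120694 (plus strand), from RefSeq on GRCm38.p6 (mm10).

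Runx1 distal: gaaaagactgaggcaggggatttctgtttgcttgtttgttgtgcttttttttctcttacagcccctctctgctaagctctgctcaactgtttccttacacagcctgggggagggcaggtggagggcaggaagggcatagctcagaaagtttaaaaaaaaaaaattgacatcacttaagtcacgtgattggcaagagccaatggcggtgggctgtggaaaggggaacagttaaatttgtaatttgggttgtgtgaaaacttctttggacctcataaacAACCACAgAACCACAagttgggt

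Runx2: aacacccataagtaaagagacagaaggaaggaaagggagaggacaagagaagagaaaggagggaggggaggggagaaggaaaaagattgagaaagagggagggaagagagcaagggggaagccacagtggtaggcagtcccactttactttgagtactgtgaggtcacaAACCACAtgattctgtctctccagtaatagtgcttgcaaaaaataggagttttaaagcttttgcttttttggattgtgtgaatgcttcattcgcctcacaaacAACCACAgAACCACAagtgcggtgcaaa

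Runx3 distal: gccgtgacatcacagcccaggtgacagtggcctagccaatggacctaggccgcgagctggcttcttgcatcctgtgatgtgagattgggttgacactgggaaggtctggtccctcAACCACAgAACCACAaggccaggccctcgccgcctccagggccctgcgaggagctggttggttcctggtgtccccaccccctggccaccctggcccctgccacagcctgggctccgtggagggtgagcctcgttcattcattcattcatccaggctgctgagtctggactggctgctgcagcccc

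AACCACA was present 2 times in the Runx1, 3 times in the Runx2 and 2 times in the Runx3 window, and its other strand form TGTGGTT in none of them. AACCACA or TGTGGTT was found in 5.27% of all 32817 promoter windows of this length, and 2 or more copies in 0.204%. The 3 windows shared a run of 18 bases, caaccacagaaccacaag, which only 4 of all windows held, the other one being that of Gm16225. It began 26 bases after the Runx1 start, 21 bases after the Runx2 start and 136 bases before the Runx3 start. The proximal Runx1 and Runx3 windows and the Cbfb window held neither form. A match of letters is a description and does not show binding.

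Each listed Runx1 and Runx3 start lay under a peak, as did the listed Cbfb start, whereas no peak of either table overlapped the listed Runx2 start. The annotation used listed 2 starts each for Runx1 and Runx3 and only 1 for Runx2. Whether a Runx2 peak lies over a start that is not listed was therefore not examined, and the Runx2 promoter cannot be called closed. The Runx2 peak nearest to that start was centred 37.3 kb into the gene in endogenous cells and 22.6 kb in the other table. Runx2 was covered by 42 intragenic peaks and 10 beyond the gene in the endogenous table. Runx3, a much shorter gene, had 8 intragenic peaks away from its starts and ends and 19 intergenic ones, most of them upstream.

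In young endogenous cells, Tterm cells had more accessible chromatin than Tprog cells at many Runx peaks. Of 113 tested peaks 32 were higher and 11 lower (limma on log2 of normalized reads plus 1, Benjamini-Hochberg adjusted p under 0.05 over all peaks of the table). Over all peaks 25.6% were called, 14.3% higher and 11.3% lower. With equal totals the split was 20 higher and 16 lower, beside 6025 higher and 11249 lower of all 71756 peaks. With quantile normalization it was 24 and 14, beside 7362 and 7241. By gene, 11 peaks were higher and 3 lower at Runx3, 7 and 2 at Runx1, 13 and 6 at Runx2, and 1 and 0 at Cbfb. The median log2 difference of the members was 0.24, beside -0.01 over all peaks. In 31 of the 43 called peaks the library values of both groups did not overlap. The same share over all called peaks is not given here, so this describes the members and is not a trait of these loci.

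The peak with the lowest p lay 48.4 kb downstream of the distal Runx3 start, in the gene body at chr4:135168164-135169936. It had 1371, 1608, 1256, 1282 and 1391 normalized reads in the young Tterm libraries, against 447, 483, 451 and 498 in young Tprog libraries. It had 1327, 1322 and 1378 in the aged Tterm libraries, against 542, 477 and 653 in aged Tprog libraries. All Tterm values stood above all Tprog values at both ages. The log2 difference was 1.55 ± 0.11 (SE; adjusted p = 1.25e-10 by limma) in young and 1.28 ± 0.13 (adjusted p = 2.84e-07) in aged cells. A second Runx3 peak 38.9 kb downstream, at chr4:135158658-135160437, differed less. It had 1093, 1252, 1332, 1294 and 1273 normalized reads in young Tterm libraries, against 567, 678, 613 and 723 in young Tprog libraries (0.95 ± 0.11, adjusted p = 1.62e-07 by limma). In aged cells the values were 1472, 1315 and 1494 in Tterm libraries, against 915, 779 and 954 in Tprog libraries (0.70 ± 0.13, adjusted p = 0.000554 by limma). The groups were separate at both ages here too.

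Smaller Runx3 peaks moved both ways. A peak 10.7 kb downstream of the distal start, at chr4:135131247-135131488, had 73.1, 75.0, 59.7, 64.4 and 87.2 normalized reads in young Tterm libraries, against 16.5, 45.1, 35.6 and 20.7 in young Tprog libraries (1.35 ± 0.33, adjusted p = 0.00275 by limma). An upstream peak at -76.7 kb from the start, at chr4:135043746-135044062, had 3.75, 2.65, 7.57, 3.79 and 6.57 in young Tterm libraries, against 16.5, 24.8, 22.2 and 23.1 in young Tprog libraries (-2.01 on the log2 scale, adjusted p = 0.00314 by limma). That upstream peak was low in every library, and it was also lower in aged Tterm cells, with 10.3, 5.52 and 4.14 against 53.8, 39.7 and 39.0 in aged Tprog cells (-2.63 ± 0.60, adjusted p = 0.00359 by limma).

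**Figure D1:**
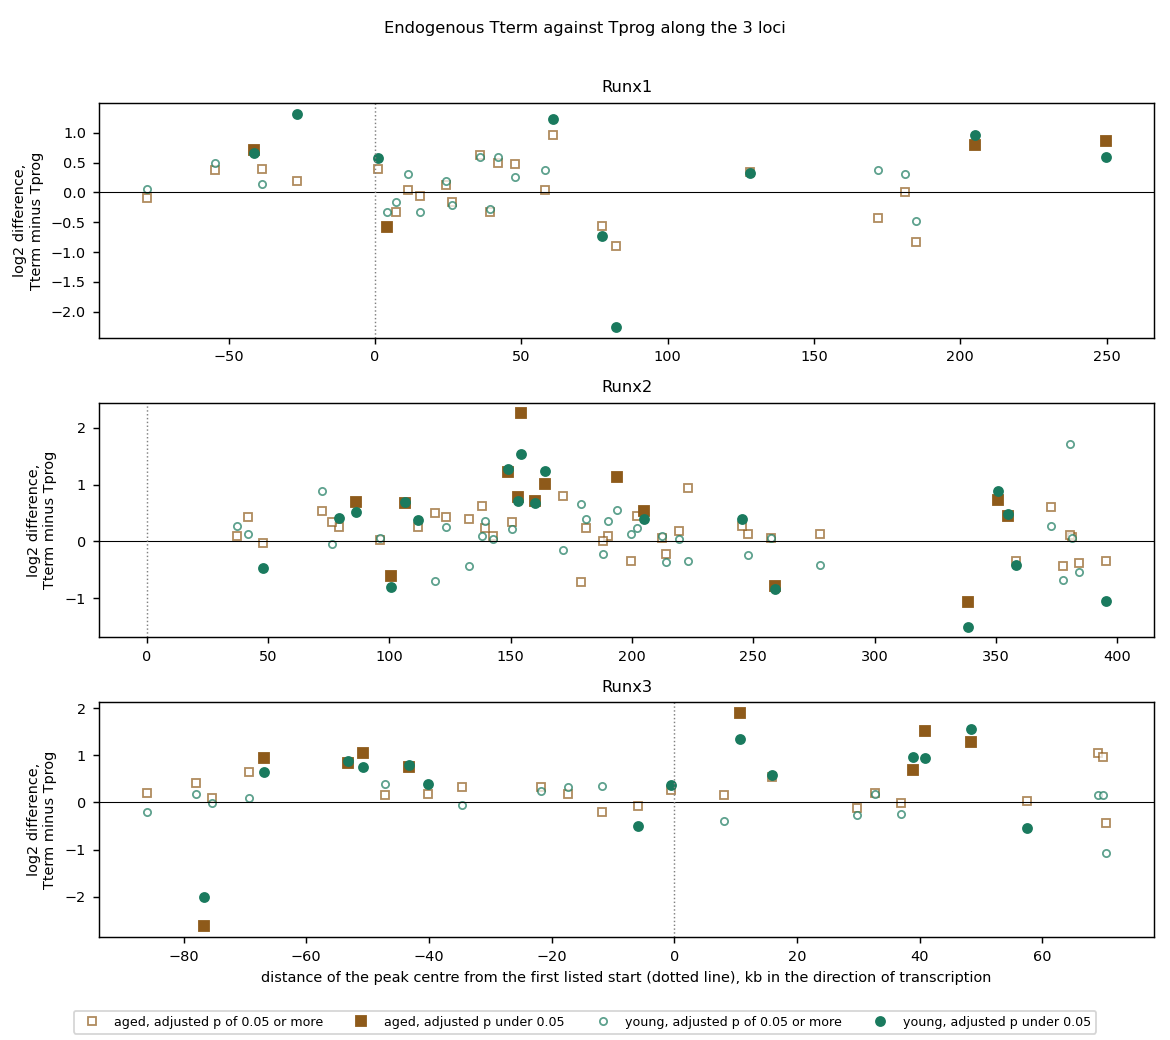
Log2 difference of normalized reads (Tterm over Tprog) at each tested peak against its distance in kb from the gene's first listed start, at Runx1, Runx2 and Runx3 in endogenous cells of aged (squares) and young (circles) mice; filled symbols are called at an adjusted p under 0.05. The Runx3 peak at 48.4 kb stands at 1.55 in young and 1.28 in aged cells, and peaks of both signs lie within each of Runx1, Runx2 and Runx3.

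Runx1 held called peaks of both signs. The largest decrease was 82.2 kb downstream of the distal start, between both promoters, at chr16:92743379-92744280. There the young Tterm libraries had 33.8, 72.9, 40.4, 23.5 and 46.6 normalized reads, against 175, 204, 233 and 184 in young Tprog libraries. The groups were far apart, with a log2 difference of -2.26 ± 0.27 (adjusted p = 3.40e-07 by limma). In aged cells the values were 65.4, 74.5 and 65.4 in Tterm libraries, against 104, 158 and 127 in Tprog libraries (-0.89, adjusted p = 0.0750 by limma), separate but not called. A neighbouring peak 77.5 kb downstream, at chr16:92747782-92749370, also fell in young cells, to 186, 198, 223, 170 and 166 in Tterm libraries, against 300, 342, 344 and 266 in Tprog libraries (-0.73 ± 0.17, adjusted p = 0.00174 by limma).

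Towards the far end of Runx1 the difference had the other sign. The peak 205.0 kb downstream, at chr16:92620510-92621724, had 836, 1170, 909, 837 and 905 normalized reads in young Tterm libraries, against 421, 734, 374 and 434 in young Tprog libraries (0.96 ± 0.16, adjusted p = 3.38e-05 by limma). In aged cells it had 816, 791 and 997 in Tterm libraries, against 484, 426 and 594 in Tprog libraries (0.80 ± 0.19, adjusted p = 0.00523 by limma). No Tterm value fell below a Tprog value of the same age.

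Runx2 also held peaks of both signs. A peak 164.3 kb into the gene, at chr17:44650102-44650577, rose to 191, 243, 188, 237 and 173 normalized reads in young Tterm libraries, against 109, 66.2, 93.4 and 82.9 in young Tprog libraries (1.23 ± 0.20, adjusted p = 3.47e-05 by limma). It was also higher in aged cells, with 210, 156 and 168 in Tterm libraries against 96.1, 80.1 and 85.6 in Tprog libraries (1.01 ± 0.25, adjusted p = 0.00557 by limma). A peak beyond the gene end, 338.5 kb from the start at chr17:44475630-44476697, fell instead. It had 54.4, 56.8, 53.0, 67.5 and 49.5 in young Tterm libraries, against 215, 137, 157 and 144 in young Tprog libraries (-1.50 ± 0.22, adjusted p = 8.96e-06 by limma). Another, 258.8 kb into the gene at chr17:44555106-44556485, fell in young cells to 272, 381, 246, 273 and 230 in Tterm libraries, against 506, 475, 499 and 506 in Tprog libraries (-0.85 ± 0.17, adjusted p = 0.000405 by limma). The highest Runx2 peak on average, 245.2 kb into the gene, had a mean difference of 0.39 ± 0.12 in young cells (adjusted p = 0.0181 by limma), a call lost in 6 of 20 alternatives, equal totals and quantile scaling among them.

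At Cbfb, the peak over the start (chr8:105169980-105171989) was the one called. It had 1138, 1219, 1005, 984 and 1167 normalized reads in young Tterm libraries, against 955, 780, 775 and 986 in young Tprog libraries, ranges that overlapped by 1 library value (0.34 ± 0.11, adjusted p = 0.0247 by limma). This call was lost in 7 of 20 alternatives, among them equal totals, quantile scaling and leaving out young Tterm 2, young Tterm 5, young Tprog 2 or young Tprog 3. In aged cells it was not called (0.17, adjusted p = 0.504 by limma).

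In aged endogenous cells 22 of 113 tested peaks were higher and 5 lower in Tterm than in Tprog cells, beside 12.1% called over all peaks (6.75% higher, 5.37% lower). The called peaks were 8 higher and 1 lower at Runx3, 3 and 1 at Runx1, 11 and 3 at Runx2 and none at Cbfb. In every called member peak the 3 Tterm and 3 Tprog values did not overlap, again without the share over all called peaks beside it. The difference between the age groups in the Tterm to Tprog change was called at none of 113 member peaks and at none of all peaks tested (5 member peaks had an unadjusted p under 0.05), and edgeR and DESeq2 on the recovered reads gave 0 as well.

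Markers of other cells moved with this comparison. The NK list (Klrb1c and Fcer1g with peaks, Ncr1 without one) summed to 669 to 905 normalized reads in young Tterm and 303 to 364 in young Tprog libraries, and to 621 to 845 in aged Tterm and 307 to 357 in aged Tprog libraries. The CD4 and regulatory T cell list (3 of 4 with peaks, Foxp3 without) summed to 2023 to 2594 in young Tterm and 1688 to 1975 in young Tprog libraries, and to 2209 to 2558 in aged Tterm and 1873 to 2068 in aged Tprog libraries. The myeloid list (5 of 7 with peaks, Lyz2 and Adgre1 without) was 2756 to 3109 in young Tterm and 2471 to 2714 in young Tprog libraries, and overlapped between the aged subsets. The melanocyte and melanoma list (5 of 7 with peaks, Tyr and Tyrp1 without) overlapped between Tterm and Tprog libraries at both ages. The part of such cells in the Runx differences was not tested. In sorted bulk populations, fewer cells with an open site and a site less open in each cell cannot be told apart.

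The start peaks had smaller differences than the leading inner peaks. The distal Runx3 start peak had 2250, 2571, 2541, 2414 and 2942 normalized reads in young Tterm libraries, against 2215, 2268, 1700 and 1751 in young Tprog libraries, overlapping by a narrow margin (0.37 ± 0.11, adjusted p = 0.0120 by limma). The proximal Runx3 start peak was not called (0.17, adjusted p = 0.222 by limma). The distal Runx1 start peak had 2346, 2616, 2416, 2575 and 2428 in young Tterm libraries, against 1784, 1829, 1685 and 1345 in young Tprog libraries, without overlap (0.58 ± 0.11, adjusted p = 0.000290 by limma). The proximal Runx1 start peak had 881, 1064, 855, 957 and 925 in young Tterm libraries, against 650, 881, 742 and 741 in young Tprog libraries, with 1 Tprog value inside the Tterm range (0.32 ± 0.12, adjusted p = 0.0443 by limma). Of these 3 calls, that of the distal Runx1 start was kept in all 20 alternatives, at 0.28 to 0.63, and the other 2 were lost with equal totals and with quantile scaling. The distal Runx3 call was also lost without young Tprog 3 or young Tprog 4, and the proximal Runx1 call without young Tterm 2, 4 or 5 or young Tprog 1, 3 or 4. In aged cells none of the 4 RUNX start peaks was called, with differences of 0.39 (adjusted p = 0.0665 by limma) at the distal Runx1 start and 0.26 (adjusted p = 0.227) at the distal Runx3 start.

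**Figure D2:**
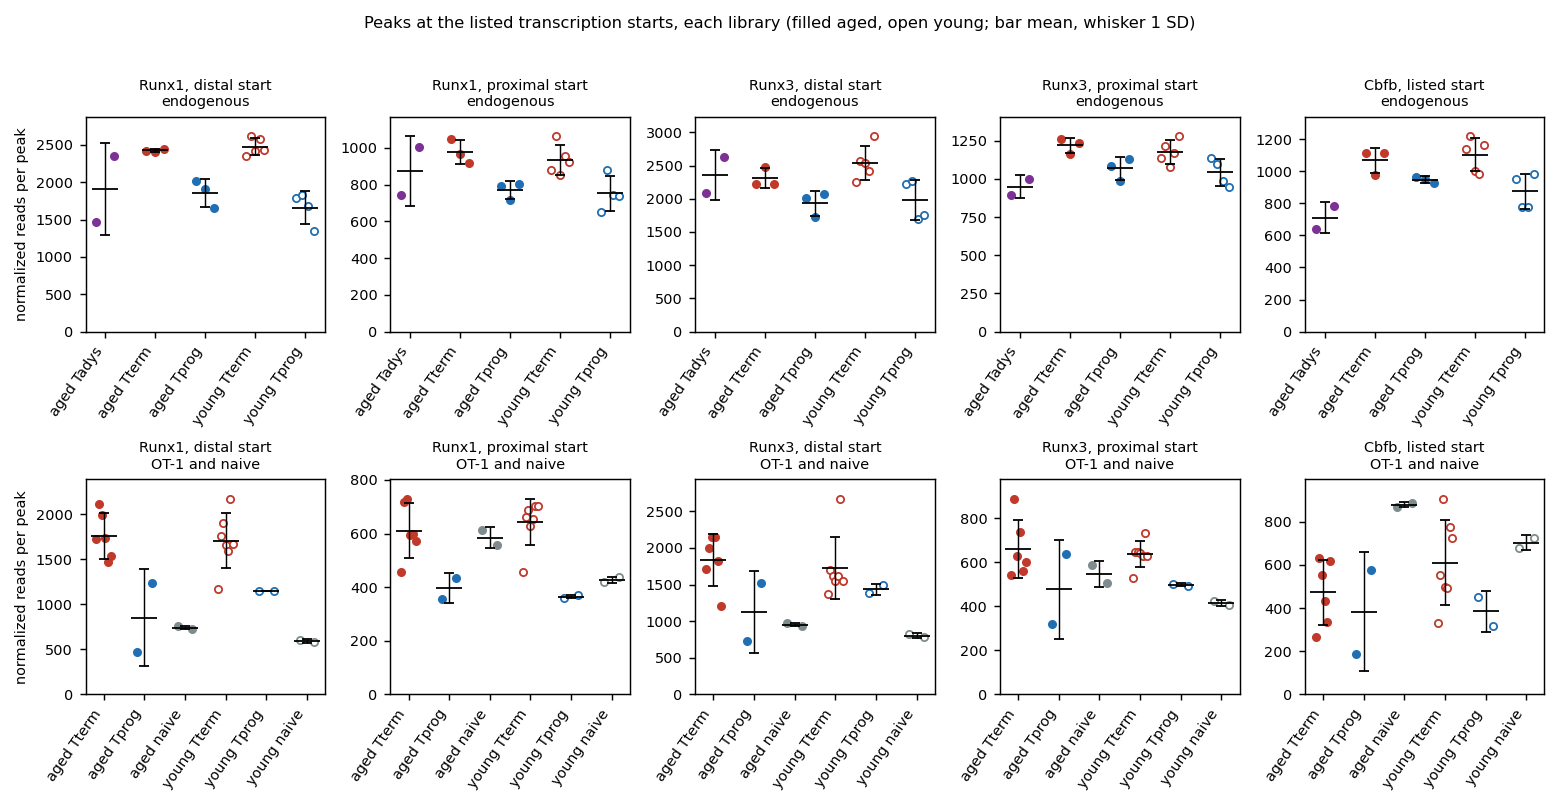
Normalized reads per library (y axis) at the peaks over the listed starts of Runx1, Runx3 and Cbfb, in the groups of each table; points are libraries (filled aged, open young), bars are group means and whiskers 1 SD. The distal Runx1 start stands at 2346 to 2616 in young Tterm and 1345 to 1829 in young Tprog libraries.

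Summed over all peaks of a gene, Runx3 carried the largest difference of the 4 members. Its sums averaged 15963 ± 1499 normalized reads in young Tterm (SD, n = 5) and 11672 ± 1108 in young Tprog libraries (n = 4), and 15553 ± 503 in aged Tterm and 11672 ± 629 in aged Tprog libraries (n = 3 each). The log2 differences were 0.45 ± 0.09 (SE; adjusted p = 0.000159 by limma over 17173 genes) in young and 0.42 ± 0.10 (adjusted p = 0.00782) in aged cells, beside 35.7% and 9.50% of genes called. Runx1 (0.27 ± 0.08, adjusted p = 0.0124) and Cbfb (0.28 ± 0.10, adjusted p = 0.0247) were called by limma in young cells, and Runx2 was not (0.18 ± 0.08, adjusted p = 0.0920). With equal totals only the Runx3 call was kept in young cells, and in aged cells it was lost without aged Tprog 2. The Runx1 call was also lost without young Tprog 4, and the Cbfb call without young Tterm 2, young Tprog 2 or young Tprog 3. In aged cells Runx1, Runx2 and Cbfb were not called.

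No Runx family peak passed the threshold between ages in endogenous cells. Between aged and young Tterm cells 0 of 113 were called by limma, 8 had an unadjusted p under 0.05, and 0.00836% of all peaks were called. The lowest p belonged to the peak 338.5 kb from the Runx2 start, with 109, 97.3 and 85.3 normalized reads in aged Tterm libraries against 54.4, 56.8, 53.0, 67.5 and 49.5 in young Tterm libraries (0.78 ± 0.24, adjusted p = 0.417 by limma). Between aged and young Tprog cells 0 were called by limma, beside 0.166% of all peaks, 11 had an unadjusted p under 0.05, and DESeq2 on the recovered reads called 3. There the lowest p belonged to a Runx1 peak at chr16:92653527-92654931, with 369, 331 and 302 in aged Tprog libraries against 248, 208, 211 and 222 in young Tprog libraries (0.58 ± 0.16, adjusted p = 0.111 by limma). At both peaks the library values of the 2 ages did not overlap, although neither was called.

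Tadys cells were compared with the other 2 subsets of aged tumours, comparisons that share the Tadys libraries with each other and the Tterm and Tprog libraries with the preceding ones. Against aged Tterm cells no member peak was higher and 13 of 113 were lower, 10 of them at Runx2, 2 at Runx1 and 1 at Cbfb, beside 6.30% called over all peaks (2.06% higher, 4.23% lower). The members' median log2 difference was -0.22, and -0.03 over all peaks. By gene the medians were -0.28 at Runx2, -0.14 at Runx1, -0.11 at Cbfb and 0.02 at Runx3. Only 2 Tadys libraries exist, and the count was 4 without Tadys 1, 5 without aged Tterm 1 and 4 without aged Tterm 3. With equal totals it was 8, beside 4084 called of all 71756 peaks. Here and below, the share over all peaks is not given for fits that leave out a single library.

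The Runx2 peak with the lowest p was 41.8 kb into the gene at chr17:44772452-44773225. It had 92.2 and 88.1 normalized reads in Tadys libraries, against 188, 182 and 330 in aged Tterm and 165, 149 and 184 in aged Tprog libraries. Both Tadys values were below all others of this age (-1.31 ± 0.24, adjusted p = 0.00208 against Tterm and -0.87 ± 0.24, adjusted p = 0.0276 against Tprog, both by limma). This peak also lies 3.9 kb from another gene, Supt3. The peak 190.3 kb into Runx2, at chr17:44623841-44624735, had 48.1 and 47.1 in Tadys libraries, against 113, 104 and 130 in aged Tterm and 131, 89.5 and 106 in aged Tprog libraries, again below both subsets (-1.25 ± 0.35, adjusted p = 0.0320 and -1.16, adjusted p = 0.0442 by limma). Of the 16 alternatives, the call at 41.8 kb was lost in 1 against Tterm cells, the fit of the 2 groups alone, and in 7 against Tprog cells, and that at 190.3 kb in 8 and 10, leaving out either Tadys library among all but the first.

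Some peaks that were high in Tterm cells were low in Tadys cells. The peak 164.3 kb into the gene had 74.1 and 102 normalized reads in Tadys libraries, against 210, 156 and 168 in aged Tterm and 96.1, 80.1 and 85.6 in aged Tprog libraries (-1.02 ± 0.27, adjusted p = 0.0261 against Tterm by limma; lost without Tadys 1, aged Tterm 1 or aged Tterm 3). A peak beyond the gene end at chr17:44463154-44464383 had 130 and 249 in Tadys libraries, against 450, 415 and 472 in aged Tterm and 311, 198 and 313 in aged Tprog libraries (-1.30 ± 0.26, adjusted p = 0.00371 against Tterm by limma, a call lost without Tadys 1). At Runx1 the peak 205.0 kb downstream had 499 and 567 in Tadys libraries, against 816, 791 and 997 in aged Tterm and 484, 426 and 594 in aged Tprog libraries (-0.70 ± 0.21, adjusted p = 0.0476 against Tterm by limma), a call lost in 11 of 16 alternatives, leaving out any 1 of the compared libraries among them.

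Against aged Tprog cells 4 member peaks were higher and 7 lower in Tadys cells, beside 6.65% called over all peaks (2.61% higher, 4.04% lower). With equal totals the split was 6 and 6, beside 2241 higher and 2748 lower of all 71756 peaks. With quantile normalization it was 7 and 7, beside 2341 and 3124. The count was 2 without Tadys 1 and 4 without either aged Tprog 2 or aged Tprog 3. Of the higher peaks 3 were at Runx3. The Runx3 peak 48.4 kb downstream had 1106 and 1051 normalized reads in Tadys libraries, against 542, 477 and 653 in aged Tprog libraries, and 1327, 1322 and 1378 in aged Tterm libraries. It therefore lay between both subsets, well above Tprog cells (0.96 ± 0.15, adjusted p = 0.000693 by limma) and not called against Tterm cells (-0.32, adjusted p = 0.204). This call against Tprog cells was kept in all 16 alternatives that gave a value, at 0.86 to 1.08.

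The other 2 higher Runx3 peaks lay upstream of the gene. The one at -69.3 kb from the distal start, at chr4:135050953-135051775, had 160 and 141 in Tadys libraries, against 42.3, 68.0 and 81.4 in aged Tprog libraries (1.27 ± 0.32, adjusted p = 0.0190 by limma). The one at -66.9 kb, at chr4:135053073-135054369, had 220 and 337 in Tadys libraries, against 92.2, 192 and 144 in aged Tprog libraries (0.99 ± 0.27, adjusted p = 0.0256 by limma). Each of these 2 calls was lost in 4 of 16 alternatives, without aged Tprog 1 in both cases, without Tadys 1 for the first and without Tadys 2 for the second. The fourth was a Runx2 peak 193.8 kb into the gene, at 130 and 120 in Tadys libraries against 80.7, 30.3 and 70.6 in aged Tprog libraries (1.15 ± 0.36, adjusted p = 0.0478 by limma; lost in 8 of 16 alternatives, without either Tadys library among them).

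Tadys cells also had the lowest Cbfb start values of the aged groups. That peak had 641 and 781 normalized reads in Tadys libraries, against 1113, 975 and 1115 in aged Tterm and 965, 955 and 926 in aged Tprog libraries. No Tadys value reached another group of this age (-0.59 ± 0.15, adjusted p = 0.0201 against Tterm by limma; lost with quantile scaling and without Tadys 1, aged Tterm 1 or aged Tterm 3), and the difference from Tprog was not called (-0.42, adjusted p = 0.0869). The sum over all Cbfb peaks was lower too (-0.47 ± 0.13, adjusted p = 0.0229 against Tterm by limma), as was that over Runx2 (-0.36 ± 0.12, adjusted p = 0.0400), beside 10.6% of genes called, and both calls were lost with equal totals and without Tadys 1, aged Tterm 1 or aged Tterm 3. The NK list summed to 441 to 595 in Tadys, 621 to 845 in aged Tterm and 307 to 357 in aged Tprog libraries. The myeloid list summed to 2694 to 2715 in Tadys libraries, above both other subsets, at 2198 to 2514 in aged Tterm and 2321 to 2677 in aged Tprog libraries. The CD4 and regulatory T cell, melanocyte and melanoma, and B cell lists overlapped between Tadys and each of the other subsets. The part of these cells was not tested.

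**Figure D3:**
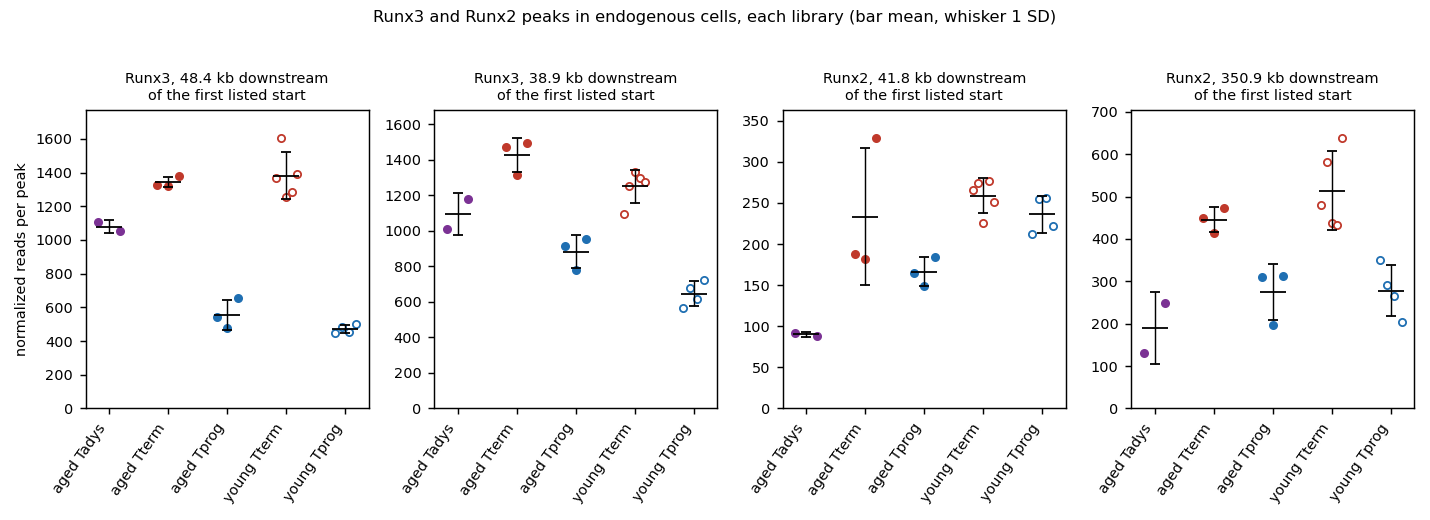
Normalized reads per library (y axis) in aged Tadys, Tterm and Tprog cells and young Tterm and Tprog cells at 2 Runx3 and 2 Runx2 peaks; points are libraries, bars are group means and whiskers 1 SD. The Runx3 peak at 48.4 kb is at 1106 and 1051 in Tadys libraries, between aged Tterm and Tprog, while the Runx2 peak at 41.8 kb, at 92.2 and 88.1, lies below both.

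OT-1 cells share 1 antigen receptor, so the same subset comparison could be made within 1 specificity. In young OT-1 cells 14 of 135 tested peaks were higher and 1 lower in Tterm than in Tprog cells, beside 7.63% called over all peaks (4.06% higher, 3.57% lower). Runx3 and Runx1 had 5 higher peaks each and Runx2 4, and the lower peak was at Runx1. Within batches 4 and 5 alone, which share one label and were not separated, 23 were higher and 3 lower, beside 12.5% called over all peaks (7.03% higher, 5.51% lower). The count was 5 without young Tprog 1 and 4 without young Tprog 2, with no share over all peaks given beside these counts.

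The Runx3 peak 48.3 kb downstream of the start, at chr4:135168055-135169873 in this table, ran from 856 over a median of 898 to 1414 normalized reads in the 7 young OT-1 Tterm libraries, against 332 and 329 in the young OT-1 Tprog libraries. The groups were wide apart (1.55 ± 0.22, adjusted p = 5.85e-05 by limma). The Runx1 peak 82.2 kb downstream, at chr16:92743419-92744378, was the lower one. It ran from 17.6 over a median of 39.4 to 46.4 in young OT-1 Tterm libraries, against 143 and 134 in young OT-1 Tprog libraries (-2.02 ± 0.38, adjusted p = 0.00101 by limma).

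In aged OT-1 cells 34 peaks were higher and 3 lower in Tterm than in Tprog cells, beside 14.7% called over all peaks (11.3% higher, 3.39% lower). The median log2 difference was 0.56 for the members and 0.15 for all peaks. With equal totals the split was 28 and 8, beside 5745 higher and 6047 lower of all 84091 peaks. With quantile normalization it was 30 and 10, beside 7124 and 5170. Both aged Tprog libraries were in batch 6 and 1 aged Tterm library was, so this comparison rests on the batch term. Within batch 6, in a fit of its 5 libraries where the lone aged Tterm library is assumed to vary like the other groups, limma called 1 of 135 member peaks, beside 0.0285% over all peaks, and 9 had an unadjusted p under 0.05. The members' median difference there was 0.40, and 124 had the sign of the fit over all batches. Both fits use the same aged Tprog libraries and this Tterm library, so their signs are not independent. The share over all peaks is not given here. The 2 aged Tprog libraries also differed widely from each other, the count being 22 without the first and 64 without the second. For these counts no share over all peaks is given, so they are not a trait of these loci. A fit of these 2 groups alone called 0 by limma.

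The Runx3 peak at 48.3 kb ran from 812 over a median of 1054 to 1272 in aged OT-1 Tterm libraries, against 170 and 246 in aged OT-1 Tprog libraries, without overlap (2.44 ± 0.27, adjusted p = 2.25e-06 by limma). Within batch 6 the Tterm library had 812 and the difference was not called (1.99, adjusted p = 0.676 by limma). The Runx2 peak 164.1 kb into the gene, at chr17:44650326-44650661, ran from 101 over a median of 135 to 142 in aged OT-1 Tterm libraries, against 0 and 38.8 in aged OT-1 Tprog libraries (4.59 ± 0.83 on the log2 of reads plus 1, adjusted p = 0.000491 by limma). Without the first of these Tprog libraries, which has the 0, the difference was 1.93, and without the second 7.25. This was the peak called within batch 6 (4.02, adjusted p = 0.01 by limma), where the Tterm library had 101. The difference in the Tterm to Tprog change between aged and young OT-1 cells was called at 0 of 135 member peaks by limma, with 23 at an unadjusted p under 0.05 and 1 called by DESeq2, beside 0.0143% called over all peaks. Without the second aged Tprog library it was called at 36, and the share over all peaks in that fit is not given here.

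The endogenous and OT-1 tables share no library, so their young Tterm to Tprog differences could be set side by side. By at least 1 bp, 110 of the 116 endogenous member peaks (94.8%) overlapped 107 of the 169 peaks of the other table (63.3%). Of 108 overlapping pairs tested in both, 90 had the same sign. Of the 42 called in endogenous cells 41 had the same sign in OT-1 cells, all 12 called in OT-1 cells had the same sign in endogenous cells, and 10 were called in both, each in the same direction. Across these peaks Pearson's r of the log2 differences was 0.78, a description over peaks of shared loci and libraries. The same shares and r over all overlapping peaks of both tables are not given here. The agreement therefore describes the members and cannot be called a trait of these loci.

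**Figure D4:**
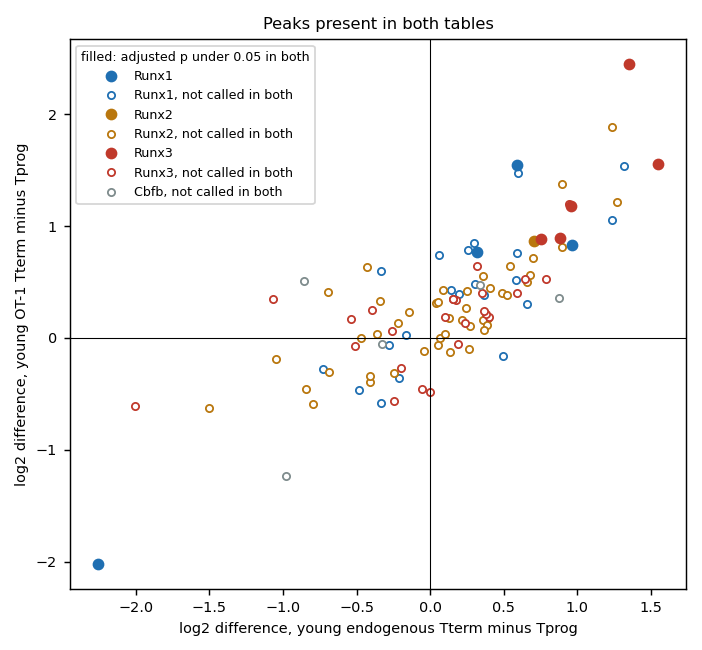
Young Tterm to Tprog log2 difference in OT-1 cells (y axis) against that in endogenous cells (x axis) for the 108 overlapping member peaks tested in both, by gene, filled where called in both. Of these, 90 lie in the quadrants of equal sign, with the Runx3 peak at 48.4 kb at 1.55 on both axes and the Runx1 peak at 82.2 kb at -2.26 and -2.02.

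The NK list (2 of 3 with peaks, Ncr1 without) was also higher in OT-1 Tterm cells, at 340 to 502 normalized reads in young Tterm and 159 to 184 in young Tprog libraries, and 416 to 520 in aged Tterm and 174 to 192 in aged Tprog libraries. The CD4 and regulatory T cell list (4 of 4 with peaks) summed to 1340 to 2041 in young Tterm and 1246 to 1297 in young Tprog libraries. Their part in the OT-1 differences was not tested.

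Between aged and young OT-1 Tterm cells 0 of 135 member peaks were called by limma, with 6 at an unadjusted p under 0.05, 1 called by edgeR and 2 by DESeq2, beside 0.266% called over all peaks. Within batches 4 and 5, with 5 libraries each, 13 were higher and 1 lower in aged cells, beside 3.80% called over all peaks (2.92% higher, 0.879% lower). These libraries share one label for both batches, so whether age coincides with batch 4 or 5 is not known. In batch 6, with 1 aged and 2 young libraries, none was called or had an unadjusted p under 0.05, and the members' median difference was -0.21. Of the peaks called in batches 4 and 5, 8 higher ones were at Runx2 and 5 at Runx3, and the lower one was at Runx1. The Runx1 peak at chr16:92799023-92799887 averaged 56.4 ± 13.3 normalized reads in aged and 128 ± 16.2 in young Tterm libraries of these batches (SD, n = 5 each), with no shared range (-1.19, adjusted p = 0.000214 by limma). In batch 6 it had 82.8 in the aged library, against 73.3 and 78.9 in the young libraries (0.12). In the fit over all libraries it was -0.91 ± 0.21 (adjusted p = 0.0533 by limma). The Runx2 peak at chr17:44555085-44556410 averaged 306 ± 74.7 in aged and 186 ± 8.44 in young Tterm libraries of these batches, again without overlap (0.68, adjusted p = 0.0118 by limma).

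Tumour OT-1 cells and splenic naive cells differ in state, tissue and sequencing batch, which cannot be told apart here. The largest contrast lay at Runx2. Young OT-1 Tterm cells were higher at 50 of the 58 tested Runx2 peaks and lower at none, at 19 and 1 of 36 at Runx3, at 13 and 6 of 36 at Runx1, and at no Cbfb peak in either direction. NK markers, at 340 to 502 normalized reads in young OT-1 Tterm and 174 to 184 in young naive libraries, moved with this contrast. So did the myeloid list (1483 to 1936 against 1050 to 1142), the B cell list (1440 to 1715 against 1299 to 1358) and the CD8 markers (4737 to 6921 against 4548 to 4722). The CD4 and regulatory T cell list and the melanocyte and melanoma list overlapped. The part of these cells was not tested here. In all, 82 member peaks were higher and 7 lower, beside 40.3% called over all peaks (22.4% higher, 17.9% lower). The median log2 difference was 1.85 at Runx2, 0.82 at Runx3, 0.18 at Runx1 and -0.42 at Cbfb, and -0.06 over all peaks.

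The Runx2 peaks named here all lie above the Runx2 median of 1.85. Over all 58 tested Runx2 peaks the log2 differences ran from -1.32 to 5.21. The peak 72.1 kb into the gene, at chr17:44742300-44742768, ran from 45.1 over a median of 64.0 to 105 normalized reads in young OT-1 Tterm libraries, against 2.57 and 4.01 in young naive libraries (4.01, adjusted p = 0.000243 by limma). The peak 164.1 kb into the gene ran from 60.0 over a median of 71.5 to 139 in young OT-1 Tterm libraries, against 0.643 and 1.60 in young naive libraries (5.21 ± 0.69, adjusted p = 1.87e-06 by limma), where the naive values are about single reads. The peak about 355 kb from the start, at chr17:44458754-44460555, ran from 321 over a median of 475 to 919 in young OT-1 Tterm libraries, against 57.2 and 60.9 in young naive libraries (3.09 ± 0.28, adjusted p = 9.02e-09 by limma). None of the naive values reached an OT-1 value at these peaks.

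Young OT-1 Tprog cells had 38 of 58 Runx2 peaks higher and none lower against naive cells, with a median log2 difference of 1.57. Over all members 57 were higher and 7 lower, beside 24.2% called over all peaks (15.0% higher, 9.15% lower). This comparison shares the naive libraries with the preceding one. The Runx2 peak 48.0 kb into the gene, at chr17:44765825-44767460, had 403 and 449 normalized reads in young OT-1 Tprog libraries, against 50.1 and 49.7 in young naive libraries (3.07 ± 0.37, adjusted p = 1.76e-06 by limma). The peak 100.6 kb into the gene, at chr17:44713339-44714813, had 508 and 529 in young OT-1 Tprog libraries, against 65.5 and 65.0 in young naive libraries (2.97 ± 0.32, adjusted p = 3.34e-07 by limma). The Runx1 peak at 82.2 kb had 143 and 134 in young OT-1 Tprog libraries and 37.9 and 38.5 in young naive libraries (1.83 ± 0.46, adjusted p = 0.00487 by limma), while young OT-1 Tterm libraries, at 17.6 to 46.4, spanned the naive values.

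In aged cells 42 Runx2 peaks were higher and 1 lower in OT-1 Tterm than in naive cells, 17 and 3 at Runx3, 7 and 10 at Runx1, and 1 and 3 at Cbfb. In all 67 were higher and 17 lower, beside 47.7% called over all peaks (21.4% higher, 26.3% lower). The Runx2 peak 48.0 kb into the gene ran from 144 over a median of 487 to 540 normalized reads in aged OT-1 Tterm libraries, against 31.9 and 54.9 in aged naive libraries (3.42 ± 0.30, adjusted p = 7.54e-09 by limma). The Cbfb start peak went the other way, from 264 over a median of 494 to 629 in aged OT-1 Tterm libraries, against 869 and 888 in aged naive libraries (-1.05 ± 0.35, adjusted p = 0.0169 by limma), a call lost without either aged naive library.

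At the Runx3 peak at 48.3 kb the young OT-1 Tterm libraries, at 856 to 1414 normalized reads, and the young OT-1 Tprog libraries, at 332 and 329, both stood above the young naive libraries, at 93.2 and 96.2. The log2 differences from naive cells were 3.35 ± 0.22 for Tterm (adjusted p = 1.93e-10 by limma) and 1.79 ± 0.27 for Tprog cells (adjusted p = 3.87e-05). The order of levels in young cells was therefore Tterm, Tprog and naive, with no overlap between neighbours. In aged cells the OT-1 Tterm libraries, at 812 to 1272, lay above the naive ones, at 275 and 251, and the aged OT-1 Tprog libraries, at 170 and 246, lay just below the naive ones.

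**Figure D5:**
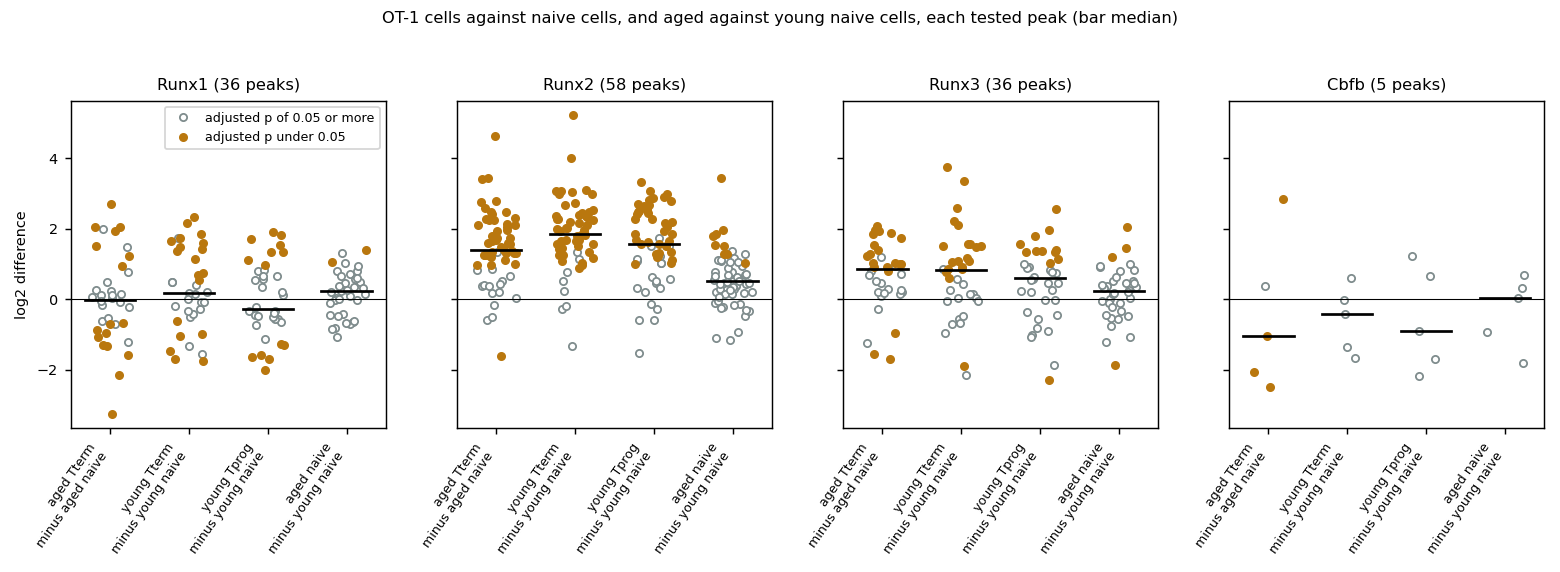
Log2 difference of normalized reads at each tested member peak, by gene, for OT-1 cells over naive cells and for aged over young naive cells; each point is a peak, filled where called, and bars are medians. Runx2 peaks centre on 1.85 for young OT-1 Tterm over naive cells, and Runx1 and Cbfb peaks on 0.18 and -0.42.

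The start peaks of Runx1 and Runx3 were also set against naive cells. The distal Runx1 start peak ran from 1172 over a median of 1673 to 2167 normalized reads in young OT-1 Tterm libraries, against 605 and 577 in young naive libraries (1.48 ± 0.27, adjusted p = 0.000125 by limma). The proximal Runx1 start peak ran from 456 over a median of 662 to 704, against 419 and 436 in young naive libraries (0.55, adjusted p = 0.0424 by limma). The distal call was kept in all 22 alternatives and the proximal one was lost in 10, without either young naive library among them. The distal over proximal ratio within a library averaged 2.65 ± 0.235 in young OT-1 Tterm (SD, n = 7) and 1.38 ± 0.0847 in young naive libraries (n = 2), and 2.91 ± 0.454 in aged OT-1 Tterm (n = 6) and 1.27 ± 0.0587 in aged naive libraries (n = 2). For Runx3 the ratio averaged 2.69 ± 0.430 in young OT-1 Tterm and 1.94 ± 0.00907 in young naive libraries, and 2.83 ± 0.566 in aged OT-1 Tterm and 1.76 ± 0.141 in aged naive libraries. The ranges did not overlap in these 4 comparisons, whose two-sided exact permutation p values were the smallest their sizes allow, 0.0556 in young and 0.0714 in aged cells. Between young OT-1 Tterm and Tprog cells the Runx1 ratio was lower in Tterm cells without overlap, at 2.65 ± 0.235 against 3.15 ± 0.0591 (-0.26 on the log2 scale, exact permutation p = 0.0556), while in young endogenous cells it averaged 2.65 ± 0.133 in Tterm (n = 5) and 2.23 ± 0.393 in Tprog libraries (n = 4), with overlap (0.27, exact permutation p = 0.0794). The Runx3 ratio averaged 2.16 ± 0.160 in young endogenous Tterm and 1.89 ± 0.142 in young endogenous Tprog libraries, with overlap (0.19, exact permutation p = 0.0317). The other 3 Tterm to Tprog ratio tests had exact permutation p values of 0.5 to 0.8 and overlapping values. Of 10 ratio tests none passed after adjustment over them (lowest adjusted p = 0.113, exact permutation). A ratio within a library does not depend on its scaling.

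In naive cells 14 member peaks were higher and 1 lower in aged than in young spleens, beside 5.24% called over all peaks (4.08% higher, 1.16% lower). Runx2 had 9 higher peaks, Runx3 3 and Runx1 2, and the lower one was at Runx3. With 2 libraries each, leaving out any 1 naive library left 3 to 5 calls, and leaving out all batch 6 libraries gave 31, beside 11.3% called over all peaks. The Runx2 peak 258.9 kb into the gene, at chr17:44555085-44556410, had 146 and 121 normalized reads in aged naive libraries, against 35.3 and 37.7 in young naive libraries, far apart (1.84 ± 0.29, adjusted p = 0.000386 by limma). The Runx3 peak at 48.3 kb had 275 and 251 in aged naive libraries, against 93.2 and 96.2 in young naive libraries (1.46 ± 0.27, adjusted p = 0.00158 by limma). These 2 calls were kept under all 17 alternatives that gave a value.

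Further aged naive increases lay in the same loci. The Runx2 peak 358.3 kb from the start, at chr17:44455579-44457085, had 249 and 258 in aged naive libraries, against 84.2 and 62.5 in young naive libraries (1.79 ± 0.36, adjusted p = 0.00335 by limma). The Runx2 peak 187.9 kb into the gene, at chr17:44626006-44627477, had 129 and 109, against 25.1 and 35.3 in young naive libraries (1.95 ± 0.46, adjusted p = 0.0109 by limma). The first of these calls was lost without young naive 2, and the second without young naive 1 or either aged naive library. The lower peak lay beyond the Runx3 gene end at chr4:135193038-135193792, with 6.72 and 8.50 in aged naive libraries against 25.1 and 36.1 in young naive libraries (-1.86 ± 0.53, adjusted p = 0.0377 by limma), a call lost without any 1 naive library and with quantile scaling. Myeloid markers (6 of 7 with peaks, Lyz2 without) summed to 1552 and 1609 in aged naive and 1050 and 1142 in young naive libraries, and NK markers to 253 and 284 in aged and 174 and 184 in young naive libraries. The CD8 markers summed to 5219 and 5446 in aged and 4548 and 4722 in young naive libraries. The melanocyte and melanoma list was higher too, at 2381 and 2400 in aged and 1976 and 2051 in young naive libraries. The CD4 and regulatory T cell list went the other way, at 1131 and 1139 in aged and 1384 and 1413 in young naive libraries. The B cell list overlapped. The part of these cells in the naive differences was not tested.

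The age difference itself was set against that of OT-1 Tterm cells. It differed between naive and OT-1 Tterm cells at 3 of 135 member peaks (2.22%), near the 2.03% called over all peaks (1.48% higher, 0.551% lower). The count is therefore not a trait of these loci. These were the Runx3 peak at 48.3 kb (1.38 on the log2 scale, adjusted p = 0.0183 by limma), the Runx2 peak at 358.3 kb (1.62, adjusted p = 0.0374) and a Runx1 peak at chr16:92653537-92654993 (1.23, adjusted p = 0.0410). The Runx1 peak had 97.4 and 95.4 normalized reads in aged naive libraries, against 41.1 and 50.5 in young naive libraries (1.06 ± 0.28, adjusted p = 0.0217 by limma; lost without any 1 naive library). In tumour cells it ran from 108 over a median of 140 to 170 in aged OT-1 Tterm libraries and from 116 over a median of 167 to 180 in young OT-1 Tterm libraries. Leaving out 1 library at a time left 0 to 4 such calls. There were 0 without either aged naive library or young naive 2, and 1 without young naive 1, aged Tterm 4, 5 or 6, or young Tterm 3, 4 or 5.

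Genes that act with or under RUNX proteins were described from lists of 15 genes each, chosen with earlier results of these data known. Cofactors, among them Groucho corepressors (Tle1 to Tle5), Ets1, which binds DNA beside RUNX1, and the kinase gene Hipk2, had 10 higher and 27 lower of 119 tested peaks in young endogenous Tterm against Tprog cells, beside 14.3% higher and 11.3% lower over all peaks. With equal totals the list had 3 and 38, beside 6025 higher and 11249 lower of all 71756 peaks. The lower peaks were at Ets1 (8), Tcf12 (6), Hipk2 (4), Tle4 (4), Cbfa2t3 (3) and Ep300 (2). A Hipk2 peak at chr6:38788925-38790165 averaged 87.9 ± 6.04 normalized reads in young Tterm (SD, n = 5) and 264 ± 54.3 in young Tprog libraries (n = 4), a difference of -1.56 ± 0.20 (adjusted p = 8.09e-07 by limma). An Ets1 peak at chr9:32758868-32760410 averaged 66.8 ± 29.7 in young Tterm and 177 ± 10.3 in young Tprog libraries (-1.50, adjusted p = 9.75e-05 by limma).

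Genes described as bound or regulated by RUNX proteins in T cells had 48 higher and 16 lower of 129 tested peaks, beside the same 14.3% higher and 11.3% lower over all peaks. With equal totals the split was 32 and 22, beside 6025 higher and 11249 lower of all 71756 peaks. With quantile normalization it was 37 and 22, beside 7362 and 7241. The cytotoxic genes carried the increases, with 18 of 27 peaks higher at Ifng, 7 of 8 at Prf1 and 7 of 9 at Gzmb, and none lower at these 3. Ifng, Prf1, Gzmb, Eomes and Tcf7 had stood in lists of an earlier account of these data. The target list was chosen with those results known, so its counts are a description and no independent result about RUNX targets. Cd4 and Zbtb7b, which RUNX proteins silence in the CD8 lineage, had 1 of 2 and 1 of 5 higher. Tcf7, which encodes the progenitor factor TCF1, had 6 of 12 lower, Eomes 3 of 13 lower and Tbx21 5 higher and 3 lower of 14. A Gzmb peak at chr14:56261599-56263015 averaged 1142 ± 115 in young Tterm and 494 ± 10.8 in young Tprog libraries (1.20 ± 0.11, adjusted p = 3.40e-09 by limma). A Tcf7 peak at chr11:52273730-52276115 averaged 210 ± 37.3 in young Tterm and 1022 ± 126 in young Tprog libraries (-2.29, adjusted p = 6.61e-12 by limma). In Tadys against aged Tterm cells the target list had 7 higher and 18 lower of 129 peaks and the cofactor list 3 and 1 of 119, beside 2.06% higher and 4.23% lower over all peaks. In aged against young naive cells the target list had 29 and 2 of 156 and the cofactor list 4 and 1 of 160, beside 4.08% higher and 1.16% lower over all peaks.

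Over the 17 endogenous libraries, the gene sums most like that of Runx3 by Pearson's r of log2 values, of 8716 genes with at least 3 peaks, were those of Il2rb, Chst12, Ankdd1a, Dapk2 and Septin9 (0.97 each). For Runx1 they were Sv2c (0.95), Pdcd1, Pik3cd, Smndc1 and Lrrc6 (0.93 each), and for Runx2 Kif15 (0.94), Dazl, Ndufab1 and Prkch (0.93 each) and Pdcd1 (0.91). For Cbfb they were Zadh2, Tlnrd1, Mindy3, Dhx9 and Tbc1d5 (0.86 each). These values share libraries, depth and scaling, and describe likeness only.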

How the data were processed

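ATAC-seq peaks were counted by the submitters in CD8+ T cell pools, 17 endogenous tumour libraries and 21 OT-1 or naive libraries. The authors deposited a table of signal per peak, that is normalized read coverage, for each set. The submitters' processing notes name the build mm10 and the tools DESeq2 1.28.1, MACS2 2.1.1, SAMtools 1.3.1, Bowtie2 2.2.9 and Picard 2.8.0, without role or order. The deposited values were whole reads divided by a size factor, since 100% of them gave whole reads at a tolerance of 0.01 read.

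Peaks were given to the nearest of 21900 protein-coding gene bodies (RefSeq, GRCm38.p6) within 100000 bp. Peaks with a mean of 10 or more were tested with limma 3.58.1 (R 4.3.3) on log2(value + 1), all groups of a table in one model with an intensity trend and, for the OT-1 table, a term for batch 6. The endogenous libraries share one label for batches 1 and 2, so no batch term was possible there. Nor was a term possible between batches 4 and 5, which also share one label. p-values were two-sided and Benjamini-Hochberg adjusted over all peaks of a table, with a threshold of 0.05. Fold changes are on that scale, which understates those of low peaks. edgeR 4.0.16 and DESeq2 1.42.0 on the recovered reads were alternatives, as were pseudocounts 0.5 and 5, a mean of 30, equal totals, quantile scaling, array weights, other distances, left-out libraries and the replicate number as a block. The fits were tested on simulated data.

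The members, marker lists and the cofactor and target lists were chosen with earlier results of these data known. Named peaks were, per gene and direction, up to 3 called peaks of largest difference without overlap, provided that the higher group averaged at least 30, all called peaks where 10 or fewer were called, the lowest p where none was, the highest mean, and the start peaks. Several peaks outside that rule were named after their values were seen, to follow a peak across groups. PCR reads carry no molecular identifiers, so depth gives counting error only.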

Additional observations from a re-analysis of the deposited data

Results flagged for a closer look

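Of 190 groups of 4 to 10 libraries tried at the named peaks and gene sums, 22 held a library far from the others by Dixon's test, where chance gives about 1 in 20. Young OT-1 Tterm 6 was the high one at 8 of them. It had 1444 normalized reads at the Runx2 peak starting at 44568739 (next 928), and 114 at the one starting at 44665519 (next 80.4). At Runx3 it had 2668 at the distal start (next 1705), 1414.5 at 48.3 kb (next 1082), 1127 at 38.9 kb (next 833), 207 at the peak starting at 135082099 (next 114) and a gene sum of 15106.5 (next 10270). At Runx1 it had 616 at the peak starting at 92864266 (next 317).

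Young OT-1 Tterm 7 was high at the Runx2 peak starting at 44611582, with 762 (next 512), and at the Runx1 peaks starting at 92640825, with 132 (next 69.6), and 92810222, with 109 (next 60.2), and low at the Runx3 peak starting at 135114239, with 197 (next 270). Young OT-1 Tterm 1 was high at the Runx1 peak starting at 92883945, with 20.5 (next 11.7), and low at the proximal Runx1 start, with 456 (next 628). Young OT-1 Tterm 2 had 130 at the Runx1 peak starting at 92575673 (next 88.0), and young OT-1 Tterm 3 had 362 at the Runx2 peak at 358.3 kb (next 292).

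In endogenous cells, young Tterm 2 had 1170 at the Runx1 peak at 205.0 kb (next 909), 381 at the Runx2 peak at 258.8 kb (next 273) and a Runx1 gene sum of 10182 (next 8913). Young Tprog 2 had 734 at the same Runx1 peak (next 434). Young Tprog 4 had 94.1 at the Runx1 peak starting at 92789736 (next 50.6) and was low, with 35.1, at the Runx2 peak starting at 44430188 (next 54.3).

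The age difference differed between naive and OT-1 Tterm cells, by limma's test of that difference, at the Runx1 peak starting at 92653537 (1.23 ± 0.32 on the log2 scale, adjusted p = 0.0410), the Runx2 peak starting at 44455579 (1.62 ± 0.41, adjusted p = 0.0374) and the Runx3 peak at 48.3 kb (1.38 ± 0.31, adjusted p = 0.0183). Naive cells had the larger aged to young difference at all 3. That contrast was chosen after seeing the data. Its share of called member peaks, 2.22%, was near the 2.03% over all peaks, and leaving out a single library left 0 to 4 calls.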

How the results depend on the processing

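Tadys, aged OT-1 Tprog and naive groups hold 2 libraries each, which limits the calls in them. Counts of called member peaks are given by setting, and the cause of each change was not tested unless the setting leaves out peaks or libraries. Shares over all peaks are not set beside the counts of this section, although they moved with the setting too. For age in naive cells 5.24% of all peaks were called in the main fit and 11.3% without all batch 6 libraries. No change of a count here can therefore be called particular to these loci. Restricting members to 10000 bp gave 17 for aged endogenous Tterm against Tprog, and to the gene body 17 there and 28 in young cells. Equal totals gave 8 for Tadys against Tterm, 1 for age in OT-1 Tterm cells and 5 for the age difference of naive against OT-1 Tterm cells, and quantile scaling gave 8 for the last and 2 for age by subset in OT-1 cells. Array weights gave 3 and 1 for Tadys against Tterm and Tprog, 29 and 12 for young and aged OT-1 Tterm against Tprog, 2 for age in OT-1 Tterm cells, 47 for age in naive cells and 28 for its difference. Fits of only the groups compared gave, for the same results, 2, 1, 23, 0, 1, 55 and 11. Without all batch 6 libraries there were 26 for young OT-1 Tterm against Tprog, 14 for age in OT-1 Tterm cells, 31 for age in naive cells and 17 for its difference. With batch 6 libraries alone, a setting added after seeing the data, there was 1 for aged OT-1 Tterm against Tprog, and the age difference of OT-1 Tterm cells at the Runx1 peak starting at 92799023 turned to 0.122. Age in OT-1 Tterm cells had 1 call with pseudocount 5, with a mean of 30 and with edgeR, and 2 with DESeq2. edgeR gave 5 for Tadys against Tprog. DESeq2 gave 3 for age in endogenous Tprog cells, 6 for the naive difference and 1 for age by subset in OT-1 cells.

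The replicate numbers did not pair the samples: deviations of same-numbered libraries had a median correlation of -0.03 over 27 endogenous pairs, and 3 of 17 endogenous and 5 of 21 other libraries correlated best with their own number. With the replicate block there were 37 calls in young and 27 in aged endogenous Tterm against Tprog, 8 and 7 for Tadys against Tterm and Tprog, and 13 called gene sums. With the block and no batch term there were 7 for young and 32 for aged OT-1 Tterm against Tprog, 14 for age in naive cells, 82, 62 and 79 for the naive comparisons of young OT-1 Tterm, young OT-1 Tprog and aged OT-1 Tterm cells, and 1 for the naive difference.

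Leaving out 1 library gave 32 to 42 for young and 19 to 25 for aged endogenous Tterm against Tprog, 4 to 14 for Tadys against Tterm, 2 to 14 against Tprog, 4 to 15 for young and 22 to 64 for aged OT-1 Tterm against Tprog, 0 to 1 for age in OT-1 Tterm cells, 3 to 5 for age in naive cells, and 0 to 4 for its difference. It gave 68 to 88, 42 to 47 and 52 to 85 for the naive comparisons of young OT-1 Tterm, young OT-1 Tprog and aged OT-1 Tterm cells, 0 to 36 for age by subset in OT-1 cells, 0 to 0 for age in endogenous cells and its difference between subsets, 13 to 17 for gene sums, 28 to 37 for the cofactor list and 51 to 62 for the target list. The log2 difference of the distal to proximal ratio in aged endogenous Tterm against Tprog cells ran from -0.0685 to 0.119 for Runx1 and from -0.0195 to 0.117 for Runx3, and turned to -0.00734 (Runx1, without aged Tterm 3), -0.0685 (Runx1, without aged Tprog 3) and -0.0195 (Runx3, without aged Tterm 2). Over all settings 380 counts stayed within 1.5 times the main one and 72 did not, and of single values 4093 kept direction and call, 539 lost the call, 15 gained it and 4 turned.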
